A study of Mus musculus with 8 samples.

Results

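Absolute transcript levels were described in haematopoietic stem cells sorted from the bone marrow of wild-type mice that had been given polyI:C. Members were chosen by genotype: the description rests on the 2 wild-type libraries, of 8 in the series, each with a deposited table of transcript levels per gene. The mice were on the C57BL/6 strain and carried the Mx1-Cre transgene, in which the interferon-responsive Mx1 promoter drives Cre recombinase. They received polyI:C, a double-stranded RNA mimic, by intraperitoneal injection at 10 mg/kg every other day for 6 injections, and the cells were collected 1 week after induction. Mx1-Cre and polyI:C were common to all 4 genotypes of the series, of which the other 3 lacked Scribble, Yap1 with Taz, or all of these, with 2 libraries each. RNA was extracted with RNeasy, amplified with Ovation RNA-Seq v2 and made into libraries with Nextera XT. No sample without polyI:C was used here, so no level below can be set against cells that had not met it. The labels do not say whether the 2 wild-type libraries came from separate mice, and the spread between them may be technical. Levels are in TPM, in which reads are divided by the length of the transcript and every library has the same total, so that levels of different genes can be set side by side. Pairs of values are for library 1 and then library 2, and a gene was counted as expressed at 1 TPM or more in both. A second deposited table, for the whole series and in an unnamed unit, is cited beside some values. These are named expressed list genes whose mean there was over 3-fold apart, and some orders that it turned. For genes that were not expressed, a missing note does not mean that the tables match.

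Haematopoietic stem cells renew themselves and give rise to every blood lineage, and most of them rest outside the cell cycle in adult marrow. They are commonly sorted as cells that lack lineage antigens, carry Sca-1 (the product of Ly6a) and KIT, and are positive for the SLAM family member CD150 (Slamf1) and negative for CD48. Resting stem cells depend on a small set of transcription factors and on cytokines of their niche, and interferon can bring them into cycle.

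The promoters of 6 interferon-induced genes are shown first, because their genes ranged from 7696 and 7812 TPM for B2m to 6.88 and 8.33 TPM for Ifit1 and each holds the same element. Sequences are RefSeq promoters on build GRCm38.p6, up to 150 bases before the start and short of any exon of GENCODE M21. They are written 5′ to 3′ on the strand of the gene. Capitals mark matches to the interferon-response element, searched as GAAA, any 2 bases and GAAA again, or on the other strand TTTC, any 2 bases and TTTC. Overlapping matches are joined.
B2m (chr2:122147537-122147685, plus strand): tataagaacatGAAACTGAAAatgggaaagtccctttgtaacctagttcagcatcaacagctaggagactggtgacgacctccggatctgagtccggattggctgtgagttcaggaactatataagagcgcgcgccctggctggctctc
Igtp (chr11:58199406-58199555, plus strand): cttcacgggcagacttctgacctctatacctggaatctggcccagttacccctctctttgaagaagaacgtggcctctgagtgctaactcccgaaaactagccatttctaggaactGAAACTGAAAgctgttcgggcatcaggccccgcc
Trim30a (chr7:104465194-104465343, minus strand): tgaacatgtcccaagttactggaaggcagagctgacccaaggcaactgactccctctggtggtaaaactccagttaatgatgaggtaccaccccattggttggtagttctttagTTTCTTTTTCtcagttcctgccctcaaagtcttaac
Rsad2 (chr12:26456453-26456602, minus strand): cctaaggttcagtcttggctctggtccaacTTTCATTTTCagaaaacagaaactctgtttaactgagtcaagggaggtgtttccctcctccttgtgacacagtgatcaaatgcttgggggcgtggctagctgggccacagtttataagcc
Isg15 (chr4:156200819-156200968, minus strand): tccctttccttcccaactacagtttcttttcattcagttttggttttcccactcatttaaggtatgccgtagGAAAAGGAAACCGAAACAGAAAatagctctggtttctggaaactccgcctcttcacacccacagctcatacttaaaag
Ifit1 (chr19:34640744-34640870, plus strand): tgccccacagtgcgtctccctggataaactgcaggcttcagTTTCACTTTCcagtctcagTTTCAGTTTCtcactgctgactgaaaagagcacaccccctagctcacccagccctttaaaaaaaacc
The window of B2m, which encodes the invariant light chain of MHC class I, holds 1 match. Igtp, an interferon-inducible GTPase, Trim30a, a TRIM family protein, and Rsad2, the antiviral enzyme viperin, also hold 1 match each. Isg15, a ubiquitin-like modifier, holds 3 overlapping matches, and Ifit1, which binds foreign RNA, holds 2.

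A further 4 promoters are shown with every CpG dinucleotide in capitals, because they give examples of base composition. They are promoters of picked stem cell transcription factors and platelet genes, all of genes at 100 TPM or more in both libraries. Each is the 250 bases before the start.
Hlf (chr11:90390918-90391167, minus strand): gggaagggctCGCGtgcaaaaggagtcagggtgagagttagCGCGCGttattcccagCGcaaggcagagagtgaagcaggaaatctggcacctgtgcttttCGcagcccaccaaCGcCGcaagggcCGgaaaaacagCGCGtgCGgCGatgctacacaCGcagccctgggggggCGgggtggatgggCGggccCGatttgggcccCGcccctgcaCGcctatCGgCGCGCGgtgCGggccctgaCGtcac
Gata2 (chr6:88193641-88193890, plus strand): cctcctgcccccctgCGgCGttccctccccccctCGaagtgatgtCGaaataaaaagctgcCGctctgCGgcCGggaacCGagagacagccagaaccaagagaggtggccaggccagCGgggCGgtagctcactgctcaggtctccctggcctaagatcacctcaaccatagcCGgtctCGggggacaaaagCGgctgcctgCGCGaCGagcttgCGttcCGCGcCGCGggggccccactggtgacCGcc
Pf4 (chr5:90772185-90772434, plus strand): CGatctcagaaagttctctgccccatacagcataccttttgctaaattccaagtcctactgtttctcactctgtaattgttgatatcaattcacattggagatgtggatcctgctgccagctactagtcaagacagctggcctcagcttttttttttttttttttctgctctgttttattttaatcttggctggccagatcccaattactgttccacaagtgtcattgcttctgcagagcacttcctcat
Gp9 (chr6:87777820-87778069, plus strand): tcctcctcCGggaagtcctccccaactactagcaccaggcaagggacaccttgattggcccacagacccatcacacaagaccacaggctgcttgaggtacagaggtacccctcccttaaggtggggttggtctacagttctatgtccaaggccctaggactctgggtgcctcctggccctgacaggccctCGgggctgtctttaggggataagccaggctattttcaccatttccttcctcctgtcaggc
Hlf and Gata2, transcription factors of the stem cell, hold 26 and 22 CpG in this window. Pf4 and Gp9, which encode platelet factor 4 and a subunit of the platelet receptor for von Willebrand factor, hold 1 and 2.

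Of 21732 protein-coding genes, 12004 (55.2%) were expressed, 4868 (22.4%) were under 1 TPM in at least 1 library and 4860 (22.4%) were listed at 0 in both. The median level of expressed genes was 21.2 TPM, and that of all protein-coding genes was 3.22 TPM. Medians of lists below include members that were not expressed. Counts of expressed list members are to be read beside the 55.2% of all protein-coding genes. A mean of 1 to 10 TPM was found for 3476 expressed genes, 10 to 100 TPM for 7291, 100 to 1000 TPM for 1114 and 1000 TPM or more for 123. The libraries correlated at Pearson's r = 0.968 and Spearman's rho = 0.963 across expressed genes on the log2(TPM + 1) scale, a description over genes that share both libraries. The spread narrowed with level: the typical gene at 1 to 10 TPM differed 1.34-fold between libraries, and 1 in 20 such genes differed by more than 2.88-fold. At 1000 TPM or more these folds were 1.07 and 1.21. The number of reads is unknown, since TPM keeps no depth, and so no floor can be put on genes listed at 0.

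**Figure D1:**
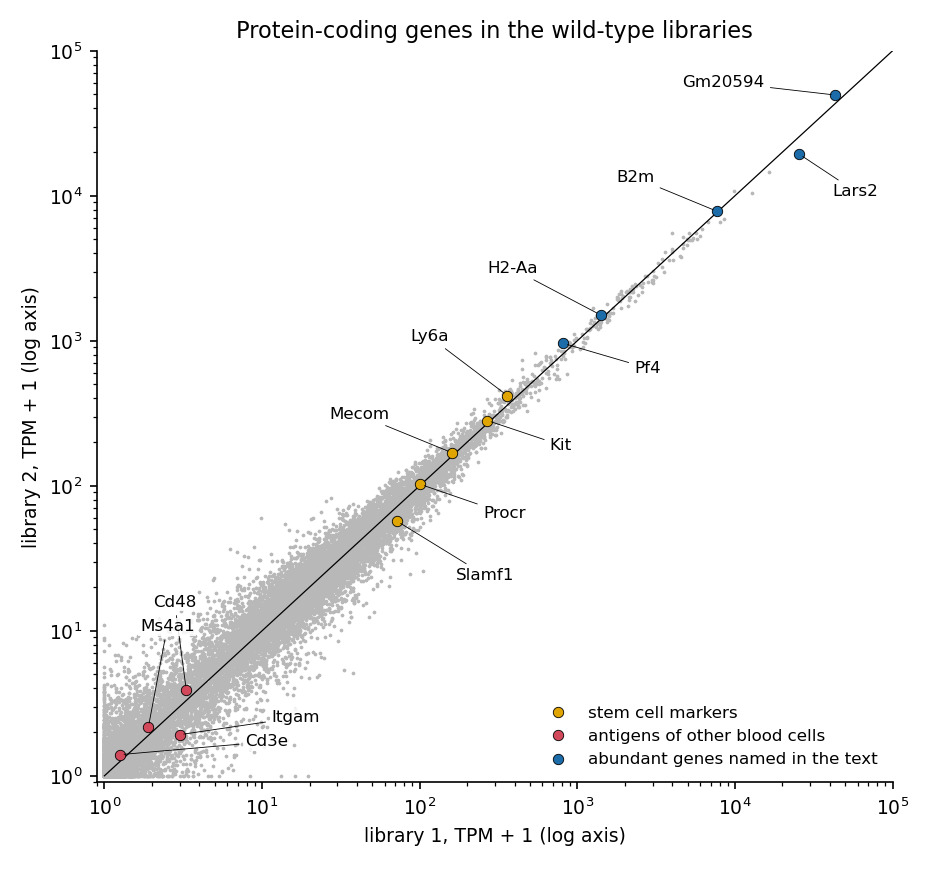
TPM + 1 in library 1 (horizontal, log axis) against library 2 (vertical, log axis), with 1 point for each of 21732 protein-coding genes and the line of equality. The stem cell markers lie between 55.9 and 417 TPM close to the line, and antigens of other blood cells lie under 3 TPM.

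The label was read beside markers of the stem cell and of the sort. Ly6a (chr15:74994877-74998031) stood at 359 and 417 TPM, a mean of 388 ± 41.1 (SD, n = 2). Kit (chr5:75574916-75656722), the receptor for stem cell factor, stood at 268 and 281 TPM, 274 ± 9.43 (SD, n = 2). Slamf1 (chr1:171767127-171801184) stood at 70.9 and 55.9 TPM, 63.4 ± 10.6 (SD, n = 2). All of the positive markers of the gate were thus well over the median of expressed genes. Mecom (chr3:29951296-30548008), which encodes the transcription factor EVI1, was at 159 and 168 TPM, and Procr (chr2:155751117-155755471), the endothelial protein C receptor, at 100 and 101 TPM. In contrast Cd48, the antigen that the gate excludes, was at 2.31 and 2.90 TPM. Of 12 genes for excluded and lineage antigens, Cd48 included, 3 were expressed, all under 10 TPM, and their summed level was 10.5 and 14.3 TPM. Among these was Cd4 of T cells, at 1.3 and 1.73 TPM. Ly6g of neutrophils was listed at 0 in both libraries. The markers of the labelled cell type were present, and each listed antigen of the excluded side was under 10 TPM. Such cells are commonly sorted on the products of Ly6a, Kit, Slamf1 and Cd48, so the levels of these are no independent check of the label. Mecom and Procr are not among these genes.

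All 30 genes on a list of stem cell reporters and identity genes were expressed, with a median of 48.1 TPM, where 55.2% of all protein-coding genes were expressed. Hlf was at 257 and 218 TPM, Cd27, a TNF receptor family member, at 223 and 226 TPM, and Msi2, an RNA-binding protein, at 208 and 229 TPM. The levels of Hlf, Cd27 and Msi2 overlapped in the TPM tables but not in the whole-series table, where Hlf was the highest of them in both libraries. Angpt1, a ligand of the receptor TIE2, stood at 162 and 186 TPM, and Mllt3, a regulator of stem cell maintenance, at 180 and 221 TPM. Some genes used as stem cell reporters were below the list median, although 9 of the 30 listed genes had a mean of 100 TPM or more. Fgd5, a guanine nucleotide exchange factor, was at 29.6 and 20.6 TPM, Ctnnal1, an alpha-catenin relative, at 24.3 and 34 TPM and Hoxb5 at 20.8 and 9.50 TPM. Markers that are commonly low on long-term stem cells differed from each other: Cd34 was at 72.0 and 70.4 TPM, whereas Flt3, the receptor of multipotent progenitors, was at 6.51 and 7.92 TPM. Because each library is RNA of many cells, fewer cells with a transcript and less of it per cell cannot be told apart.

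The most abundant transcripts were those of protein synthesis. The 100 most abundant genes held 41.6% and 40.5% of protein-coding TPM, and 196 and 216 genes held 50%. Cytosolic ribosomal proteins, 86 genes of which 84 were expressed, held 25.4% and 23.9%, a mean of 24.6 ± 1.08% (SD, n = 2). They made up 16 of the 25 most abundant genes and 59 of the top 100. Rps29 was at 16368 and 14563 TPM and Rps27 at 12736 and 10390 TPM. Of the ribosomal protein genes, 76 have a near-identical copy elsewhere in the annotation, so reads of these genes and of processed pseudogenes may have been shared out in ways the tables do not show. Pseudogenes themselves held 5.77% and 6.10% of all TPM. Translation factors were also near the top, with the elongation factor Eef1a1 at 5047 and 4958 TPM and the poly(A)-binding protein Pabpc1 at 4687 and 5161 TPM.

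Several of the highest values did not belong to that class. Rank 1 was taken by Gm20594 (chr6:79817916-79818364), at 43341 and 49493 TPM, or 4.63% and 5.30% of the protein-coding total. It is a gene model without a name, given here outside the rule for named genes because it led the list. Its transcript of 449 bases is 88.5% identical over 435 aligned bases to mt-Rnr2, the large mitochondrial ribosomal RNA. How reads of these loci were divided was not tested. Lars2 (chr9:123366927-123462666), the mitochondrial leucyl-tRNA synthetase, ranked 2 at 25639 and 19319 TPM, and Zfp280d, a zinc finger protein, ranked 14 at 5073 and 5543 TPM. The 25 most abundant genes were searched against the mitochondrial ribosomal RNAs, and only Gm20594 matched at 85% identity or more. Nuclear ribosomal RNA was not searched, so whether reads of it add to other high values, Lars2 included, was not tested. B2m ranked 6 at 7696 and 7812 TPM. All 13 protein genes of the mitochondrial genome were expressed and held 2.74% and 2.86% of protein-coding TPM, among them mt-Atp8, a subunit of ATP synthase, at 5214 and 4944 TPM and the cytochrome oxidase subunits mt-Co2, at 4929 and 4597 TPM, and mt-Co1, at 3998 and 5503 TPM. In the whole-series table mt-Atp8 was 87109 and 1215, the widest difference between libraries there among genes at 10 TPM or more. The other members of the top 25 included further ribosomal proteins, such as Rpl41 at 8511 and 6965 TPM and Rpl36a at 4473 and 3845 TPM.

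Every one of 37 transcription factors on the stem cell list was expressed, with a median of 88.4 TPM, and 16 had a mean of 100 TPM or more. Lmo2, the bridging protein of the stem cell complex, was highest at 894 and 958 TPM. Its partners were lower: Tal1 stood at 73.6 and 84.7 TPM, Lyl1 at 92.6 and 77.3 TPM and Ldb1 at 86.2 and 90.6 TPM. Among DNA-binding members of the same circuit, Gata2 was at 256 and 217 TPM, Erg at 245 and 253 TPM, Fli1 at 143 and 168 TPM and Runx1 at 103 and 98.6 TPM. Etv6, a repressor of the ETS family, was at 422 and 458 TPM, and the proto-oncogenes Myb and Myc were at 363 and 330 TPM and at 261 and 281 TPM. The levels of Lmo2 exceeded those of every other listed factor in both libraries. At the low end Hoxb4 was at 4.25 and 4.49 TPM and Zbtb16, the zinc finger protein PLZF, at 2.10 and 2.15 TPM. Prdm16, a chromatin regulator related to EVI1, was at 19.7 and 16 TPM, below Mecom.

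HOX genes, which set positional identity in the embryo and self-renewal in blood cells, were split by cluster. Of 39 HOX genes 13 were expressed: 8 of 11 in the A cluster, 5 of 10 in the B cluster and none of 9 in each of the C and D clusters. Summed levels were 133 and 150 TPM for cluster A and 48.1 and 37.7 TPM for cluster B, against 1.69 and 2.42 TPM for C and 0 and 0.34 TPM for D. Hoxa9 was at 36.1 and 46.1 TPM and Hoxa7 at 46.5 and 35.0 TPM, and the libraries placed them in opposite order. Hoxa3 varied most among the expressed A genes, at 7.70 and 21.1 TPM. Within both active clusters expression ran over a central block of paralogs. In cluster A it reached from Hoxa2 to Hoxa10, while Hoxa11 and Hoxa13 were under 1 TPM. In cluster B it reached from Hoxb2 to Hoxb6, and Hoxb7, at 0.932 and 1.11 TPM, and Hoxb8, at 1.35 and 0.663 TPM, lay at the threshold. The highest member of the silent clusters was Hoxc9, at 0.460 and 1.33 TPM. Meis1, a cofactor of HOX proteins, was higher than any HOX gene at 278 and 215 TPM, and 8 of 9 MEIS and PBX family genes were expressed.

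**Figure D2:**
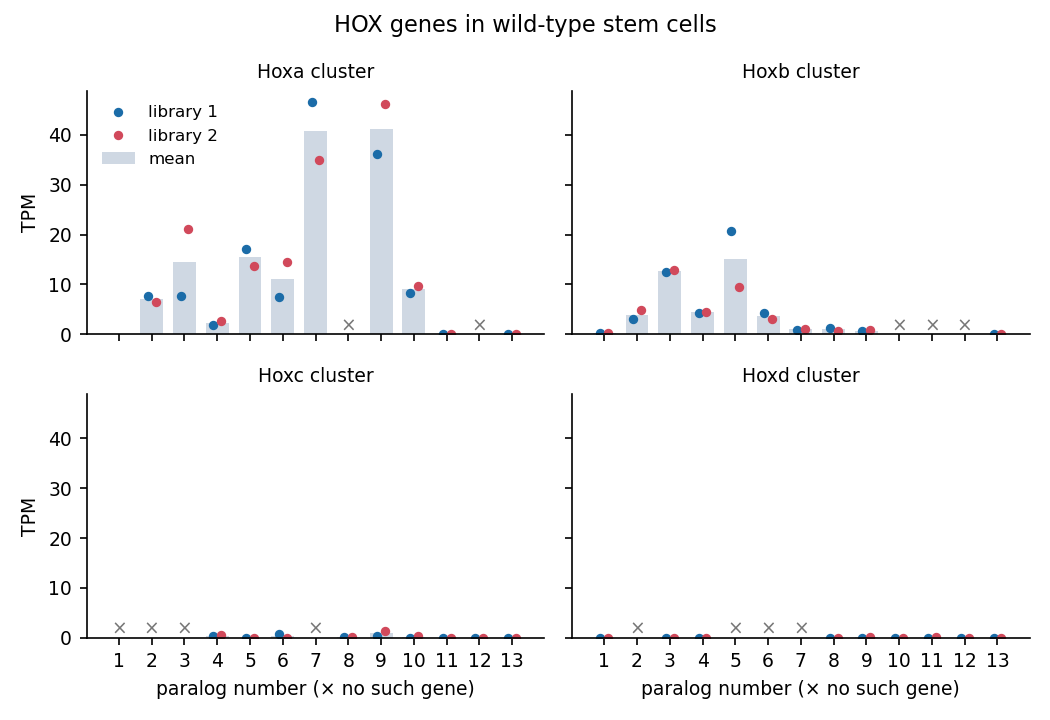
TPM (vertical) of HOX genes by paralog number (horizontal), 1 panel per cluster, with a bar for the mean and a point for each library, and a place with neither point nor cross is not shown. Clusters A and B are expressed over a central block of paralogs that peaks at Hoxa7 and Hoxa9, and no gene of clusters C and D reached 1 TPM in both libraries.

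Other families of transcription factors were expressed in part. All 3 RUNX factors and their partner Cbfb were expressed, and Runx2, known for bone formation, was at 102 and 100 TPM, level with Runx1, but was the higher in the whole-series table, at 80.1 and 90.1 against 46.8 and 59.4. Of 26 ETS family genes 18 were expressed, and of 9 interferon regulatory factors 8, led by Irf2 at 195 and 217 TPM. Irf4 of lymphocytes, at 0.648 and 0.195 TPM, was the regulatory factor under the threshold. All 7 STAT genes were expressed, 14 of 17 Kruppel-like factors and 7 of 8 SMAD genes. By contrast 15 of 44 forkhead genes, 5 of 19 SOX genes and 1 of 9 PAX genes were expressed. Among forkhead genes Foxp1 led at 107 and 133.7 TPM, and Foxo3, a factor of stem cell quiescence, was at 57.8 and 63.7 TPM. Of 49 nuclear receptors 26 were expressed (53.1%), near the 55.2% of all protein-coding genes. The highest were the immediate early receptors Nr4a1, at 471 and 433 TPM, and Nr4a2, at 278 and 306 TPM. Of the HES and HEY repressors, targets of Notch, 4 of 10 were expressed, with Hes1 at 358 and 396 TPM and Hey1 at 58.9 and 58.7 TPM. Of 20 factors that define tissues outside blood, 4 were expressed. Runx2 stood apart from the other 3, which were Hnf4a of liver at 1.52 and 2.72 TPM, Pax6 of eye and brain at 1.63 and 1.5 TPM and Nanog of the early embryo at 1.34 and 1.70 TPM.

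Factors that drive the blood lineages differed in level by lineage. All 9 factors of the erythroid and megakaryocyte list were expressed, with a median of 65.1 TPM, but the defining pair was low. Gata1 was at 18.7 and 13.1 TPM, below Gata2 in both libraries, and Klf1, which activates globin genes, was at 5.57 and 4.07 TPM. Nfe2, a factor of platelet formation, was at 176 and 164 TPM, and Gfi1b, a repressor of the same lineages, at 69.0 and 84.3 TPM. On the myeloid list 6 of 11 were expressed (54.5%), near the 55.2% of all protein-coding genes. Spi1, which encodes PU.1, was at 119 and 123 TPM, and Zeb2, a repressor, at 87.3 and 78.1 TPM. Cebpa, which opens the granulocyte programme, was at 0 and 0.400 TPM, and Cebpe, which acts later in it, was listed at 0 in both. Irf8 of monocytes and dendritic cells was at 3.38 and 3.11 TPM. Of 16 lymphoid factors 7 were expressed, and these included the broadly used E proteins Tcf12, at 84.8 and 78.0 TPM, Tcf4, at 75.2 and 87.6 TPM, and Tcf3, at 52.0 and 51.1 TPM. The commitment factors were under 1 TPM: Pax5 was at 0 and 0.00663 TPM, Ebf1 at 0.307 and 0.326 TPM, Tcf7 at 0.581 and 0.544 TPM and Bcl11b at 0.0685 and 0.0132 TPM. Gata3, a T cell factor also known in stem cells, was at 29.7 and 16.8 TPM.

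Among 32 genes listed for cytokine signals of growth and survival, 24 were expressed (75%, against 55.2% of all protein-coding genes). Their median over all 32 was 13.1 TPM, where that of all protein-coding genes was 3.22 TPM. The list holds receptors and, besides, Tslp, the ligand that Crlf2 binds. Kit was among the 3 with a mean of 100 TPM or more, as was Il2rg, the shared gamma chain of several interleukin receptors, at 151 and 140 TPM. Its partners were uneven. Il15ra was at 35.5 and 33.4 TPM, Il21r at 24.4 and 26.1 TPM and Il4ra at 18.7 and 29.6 TPM, while Il7r was at 0.101 and 0.190 TPM, Il2ra at 0.996 and 0.464 TPM and Il2rb was listed at 0 in both. Il2rb and Il7r encode the partners that lymphocytes use for interleukin-2, interleukin-15 and interleukin-7. Receptors of the myeloid cytokines were split as well. Csf3r, the receptor for G-CSF, was at 52.9 and 56.7 TPM, Csf2ra at 27.3 and 26.8 TPM and Csf2rb, the shared beta chain, at 12.8 and 15 TPM. Il3ra was lower at 3.36 and 5.61 TPM, and Csf1r, the receptor for M-CSF, was at 0.748 and 0.127 TPM. Of the gp130 family Il6st, gp130 itself, was at 20.1 and 22.6 TPM and Il11ra1 at 24.7 and 40.1 TPM, a gene with near-identical copies. Il6ra was at 3.81 and 5.93 TPM, Lifr at 1.59 and 0.477 TPM and Osmr at 1.12 and 0.762 TPM. Epor, the erythropoietin receptor, was at 22.5 and 12.9 TPM.

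**Figure D3:**
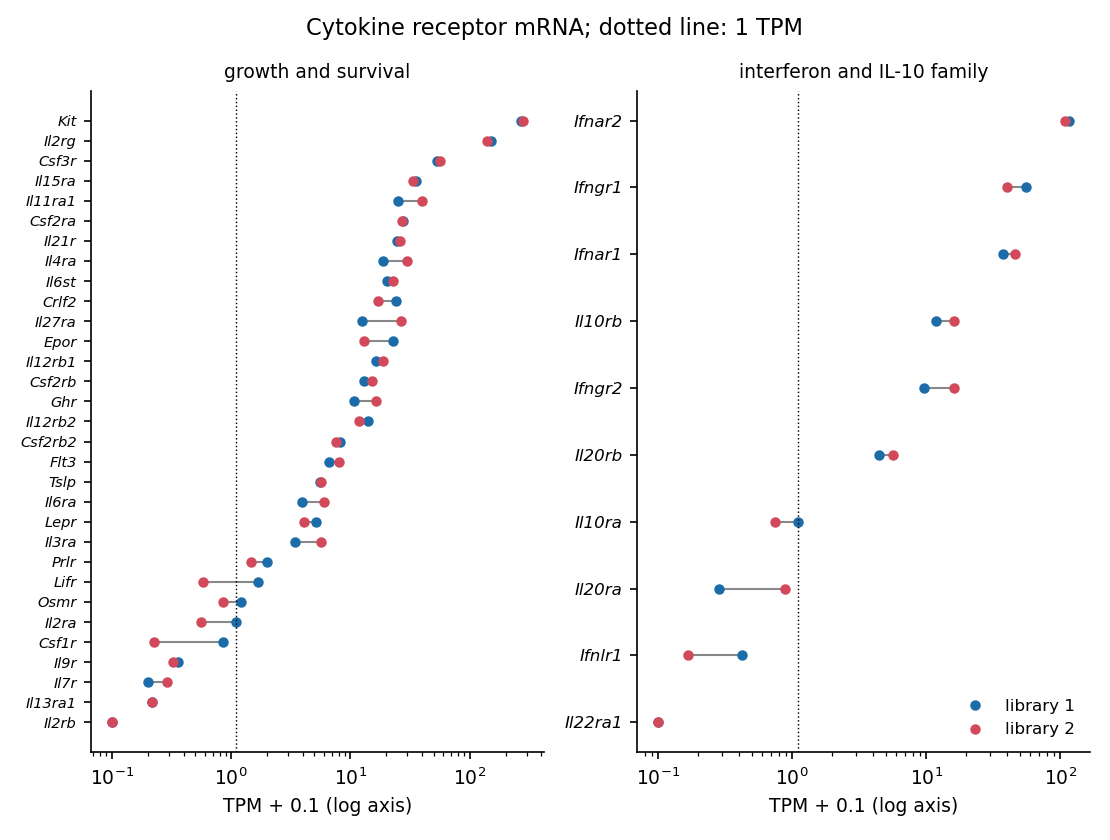
TPM plus an offset of 0.1 (log axis) in library 1 and library 2 for listed genes of growth and survival cytokine signals (left, with the ligand Tslp) and of the interferon and interleukin-10 receptor family (right), ordered by mean. Kit leads the genes drawn in the left panel and Ifnar2 those in the right, and Il2rb and Il22ra1 are listed at 0 in both libraries.

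The receptors for interferon were present. Ifnar2, the chain of the type I receptor that binds JAK1, was at 116 and 109 TPM, and its partner Ifnar1 at 37.6 and 46.2 TPM. Ifngr1 and Ifngr2 of the interferon-gamma receptor were at 55.7 and 39.9 TPM and at 9.48 and 16.1 TPM. Both chains of each receptor were thus expressed, with 1 chain the higher in both libraries. Ifnlr1, which mediates the response to interferon-lambda, was at 0.322 and 0.0680 TPM, and Il22ra1 was listed at 0. All 20 signal transducers listed were expressed. Stat2 and Irf9, which act together in the response to type I interferon, were at 64.5 and 63.3 TPM and at 44.1 and 39.5 TPM. In the whole-series table Stat2 was 15.5 and 23.5. Jak1 was at 102 and 117 TPM, Jak2, which serves Epor, at 37.9 and 35.0 TPM and Tyk2 at 19.1 and 19.9 TPM. Feedback inhibitors of the SOCS family differed, with Cish at 36.6 and 18 TPM, Socs2 at 22.3 and 25.6 TPM, Socs3 at 10.1 and 11.6 TPM and Socs1 at 1.23 and 1.82 TPM.

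Of 50 genes known to be induced by interferon 49 were expressed in these mice, with a median of 43.5 TPM, but their levels spread widely. After B2m came H2-K1, a heavy chain of MHC class I, at 3423 and 3214 TPM, and H2-D1, another, was at 1813 and 1967 TPM. The immunoproteasome subunits Psmb9 and Psmb8 were at 534 and 484 TPM and at 137 and 129 TPM, and the peptide transporter Tap1 at 140 and 119 TPM. The membrane proteins Ifitm3, Ifitm2 and Ifitm1, which block viral entry and are known to be high in stem cells, were at 2411 and 2070 TPM, 1799 and 1898 TPM, and 928 and 847 TPM. Ifitm6, of the same family, was listed at 0 in both. Several classical antiviral genes were far lower. Isg15 was at 9.49 and 14.4 TPM, Ifit1 at 6.88 and 8.33 TPM, Ifit3 at 5.13 and 1.84 TPM and Oas2 at 6.38 and 10.2 TPM. Others lay between, with means of 94.1 TPM for Oasl2, 48.0 TPM for Eif2ak2, 24.8 TPM for Oas1a and 23.0 TPM for Oas3. Mx1, whose promoter drives the Cre transgene, was the lowest expressed member at 1.26 and 2.88 TPM, and Mx2 was at 4.17 and 4.32 TPM. Among interferon-inducible GTPases Ifi47 was at 409 and 408 TPM, Igtp at 187 and 187 TPM and Iigp1 at 76.7 and 73.1 TPM. Sensors of viral RNA were expressed as well, with Ddx58, which encodes RIG-I, at 102 and 129 TPM, and Ifih1, which encodes MDA5, at 42.1 and 47.0 TPM. Tlr3, the endosomal receptor for double-stranded RNA and thus for polyI:C, was at 3.42 and 10.2 TPM and at 1.59 and 1.91 in the whole-series table.

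The interferon-response element was common in this list. A match to the element (GAAA, any 2 bases, GAAA) on either strand lay within 250 bases before the start in 17 of 41 interferon-induced genes with a RefSeq promoter (41.5%), where 3.09% of 16470 matched promoters held one. The promoters printed above were picked from most of the range of genes with a match, and leave out the lowest, Ifit3. They are B2m at 7696 and 7812 TPM, Igtp at 187 and 187 TPM, Trim30a at 88.7 and 99.0 TPM, Rsad2 at 23.5 and 20.6 TPM, Isg15 at 9.49 and 14.4 TPM and Ifit1 at 6.88 and 8.33 TPM. Isg15 and Ifit1 hold the most matches of the 6 and were the lowest of these. The 6 were picked from 17 genes, so no relation of match number to level can be read from them. The 17 genes with a match had a median of 35.3 TPM and a range from 3.48 to 7754 TPM. The 24 without had a median of 79.1 TPM and a range from 0 to 3319 TPM. A match is a run of letters and not a measured site.

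Most receptors that sense infection and inflammation were under 10 TPM. Of 25 genes of the interleukin-1, toll-like and TNF receptor families 18 were expressed (72%, against 55.2% of all protein-coding genes). Their median over all 25 was 6.03 TPM, above the 3.22 TPM of all protein-coding genes. Beyond Cd27 the highest was Tnfrsf1a, the main TNF receptor, at 41.4 and 46.6 TPM. Tlr4, which senses bacterial lipopolysaccharide, was at 15.4 and 27.6 TPM, and Tlr2 at 3.76 and 4.70 TPM. Tlr7 and Tlr8, which sense single-stranded RNA, were listed at 0 in both libraries, and Tlr9, which senses DNA, was at 0.67 and 0.111 TPM. Il1r1 was at 4.95 and 4.08 TPM, while Il1r2, its decoy, was at 0.638 and 8.27 TPM and so cannot be called present or absent. The death receptor Fas was at 2.04 and 2.95 TPM.

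Of the 14 receptors for TGF-beta, BMP and activin 9 were expressed (64.3%, against 55.2% of all protein-coding genes). The co-receptors Eng, at 109 and 94.1 TPM, and Tgfbr3, at 57.6 and 59.2 TPM, were above the signalling chains Tgfbr1, at 15.1 and 18.7 TPM, and Tgfbr2, at 11.6 and 13.3 TPM. For BMP the type II chain Bmpr2 was at 18.5 and 25.1 TPM, and among type I chains Acvr1 was expressed at 2.61 and 4.8 TPM, while Bmpr1a, at 0.448 and 0.522 TPM, and Bmpr1b, listed at 0, were not. Of 37 receptor tyrosine kinases 16 were expressed (43.2%, against the same 55.2%), and 6 had a mean of 10 TPM or more. After Kit came the insulin-like growth factor receptor Igf1r, at 47.9 and 52.5 TPM, and Tie1, an angiopoietin co-receptor, at 41.5 and 39.4 TPM. Tek, the TIE2 receptor that binds the product of Angpt1, was at 13.6 and 27.4 TPM, so both ligand and receptor were expressed in these cells. Pdgfra was at 0.193 and 0.231 TPM and Egfr at 0.223 and 0.342 TPM. Among the 6 kinases listed at 0 in both libraries were Fgfr4, Erbb2, Erbb4, Ret and Alk.

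Surface receptors of adhesion and homing were the fullest receptor list, with 37 of 41 expressed and a median of 31.5 TPM. Cd24a, a small glycoprotein, was at 366 and 407 TPM, and Cd81, a tetraspanin, at 315 and 370 TPM. Cd47, the signal that protects cells from phagocytosis, was at 290 and 306 TPM. Ptprc, the pan-leukocyte antigen CD45, was at 259 and 205 TPM, but at 0.125 and 0.403 in the whole-series table. Among 26 integrin subunits 16 were expressed (61.5%, near the 55.2% of all protein-coding genes). Itga6 was at 229 and 267 TPM, Itga2b, also called CD41, at 127.2 and 134.05 TPM, and Itgb1, the beta chain of the VLA family, at 81.3 and 86.0 TPM. Itga4, which pairs with it to bind VCAM1, was at 57.9 and 55.6 TPM. Of 23 chemokine receptors 7 were expressed (30.4%). The highest was Cxcr4, the receptor that retains stem cells in the marrow, at 32.3 and 23.6 TPM. Cdh2 and Cdh5, cadherins of mesenchyme and endothelium, were at 0.298 and 0.236 TPM and at 0 and 0.0137 TPM. Esam, an adhesion molecule used to sort stem cells, was at 54.2 and 50.3 TPM, and Tspan32, a blood cell tetraspanin, at 227 and 171 TPM.

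A pair of adhesion G protein-coupled receptors stood above the other listed receptors in the TPM tables. Adgrg1 (chr8:94974751-95014217), also called Gpr56, was at 1546 and 1409 TPM, and Adgrl4, an endothelial and stem cell receptor also called Eltd1, at 1194 and 1335 TPM. Adgrg1 was the higher in both TPM tables. The whole-series table turned that order, with Adgrg1 at 251 and 266 and Adgrl4 at 740 and 885, and placed Adgrg1 below Cd24a, at 283 and 351. The next was the thrombin receptor F2r, at 99.5 and 97.2 TPM. Calcrl, at 83.5 and 77.6 TPM, and Ramp1, at 36.8 and 25.8 TPM, together form the receptor for the neuropeptide CGRP, whereas Ramp2, which makes Calcrl a receptor for adrenomedullin, was at 3.92 and 0.837 TPM. P2ry14, a receptor for UDP-glucose, was at 20.1 and 36 TPM. S1pr1, which guides exit to blood, was at 5.34 and 7.34 TPM. Adrb3, a target of sympathetic nerves, was at 2.46 and 1.56 TPM, and at 0.0347 and 0.183 in the whole-series table, where it was not expressed. Gprc5c, a marker of dormant stem cells, was at 1.81 and 0.426 TPM. Of 33 such receptors and accessory proteins 22 were expressed.

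Receptors of developmental pathways were at low to moderate levels. Notch2 was at 44 and 48.7 TPM, above Notch1, at 7.95 and 15 TPM, and Notch3 was at 0.434 and 0.573 TPM. The Wnt co-receptors Lrp6 and Lrp5 were at 23.2 and 28.1 TPM and at 18.7 and 22.6 TPM (Lrp5 was 2.43 and 2.52 in the whole-series table), and the highest Frizzled was Fzd7 at 13.0 and 7.46 TPM. Smo, the transducer of hedgehog signals, was at 36.3 and 36.4 TPM. Of 14 Eph receptors 5 were expressed, none at 10 TPM or more.

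Metabolic genes were mostly expressed, and within several steps 1 isozyme predominated. All 21 enzymes of the citric acid cycle list were expressed, with a median of 88.4 TPM, as were all 26 of the pentose phosphate and nucleotide list, with a median of 40.5 TPM. Of 30 glycolysis genes 25 were expressed. Gapdh was highest at 2556 and 2362 TPM, a gene with many near-identical copies. For hexokinase, which starts the pathway, Hk2 was at 222 and 188 TPM and exceeded Hk1, at 64.9 and 76.6 TPM, in both libraries. For lactate dehydrogenase, which ends it, Ldha was at 470 and 521 TPM, Ldhb at 152 and 129 TPM and the testis form Ldhc at 0.0953 and 0.180 TPM. Pkm was at 239 and 237 TPM, against 0 and 0.180 TPM for the liver form Pklr. The glucose transporters Slc2a3 and Slc2a1 were at 61.7 and 73.7 TPM and at 48.0 and 45.8 TPM, while Slc2a4, the insulin-regulated form, was at 0.642 and 0.114 TPM. Pfkfb3, an activator of glycolysis, differed between libraries, at 52.4 and 19.4 TPM.

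Of the kinases that hold pyruvate back from oxidation, Pdk3 was at 43.3 and 40.1 TPM, Pdk1 at 33.0 and 37.1 TPM and Pdk2 at 22.2 and 20.2 TPM. Pdk4, which follows fatty acid use, was lower at 1.37 and 6.02 TPM. Pdhb, a subunit of pyruvate dehydrogenase itself, was at 112 and 105 TPM. Fatty acid oxidation genes were expressed for 18 of 23, with the liver form Cpt1a at 61.1 and 77.1 TPM as the main carnitine transferase and the muscle form Cpt1b at 0.931 and 0.232 TPM. Among the receptors that regulate this pathway Ppard was at 10.1 and 12.6 TPM, Pparg at 0.0838 and 0.666 TPM and Ppara at 0.0194 and 0.0335 TPM. Aldh1a1, the retinaldehyde dehydrogenase, was at 278 and 258 TPM, and Aldh2, which clears acetaldehyde, at 174 and 201 TPM, or 44.8 and 65.2 in the whole-series table. Mat2a, which makes S-adenosylmethionine, was at 268 and 397 TPM and its liver form Mat1a was listed at 0. Bcat1, a branched-chain transaminase, was at 0.10 and 2.19 TPM.

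Among genes of oxidant defence a few were far more abundant than the rest. Sod1, the cytosolic superoxide dismutase, was at 2074 and 2193 TPM, against 26 and 27.1 TPM for the mitochondrial Sod2 and 0 for the secreted Sod3. Gpx1, the main glutathione peroxidase, was at 535 and 825 TPM, and Txn1, thioredoxin, at 634 and 600 TPM. Sod1 and Txn1 have near-identical copies in the annotation. Of 27 genes listed 24 were expressed. Hif1a, the main hypoxia factor, was at 26.1 and 20.5 TPM and Epas1, its relative, at 1.58 and 1.80 TPM. The kinase Stk11, which encodes LKB1, was at 201 and 158 TPM, and its substrate Prkaa1, a catalytic subunit of AMPK, at 21.2 and 14.8 TPM.

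Genes of the resting state and of the cell cycle were expressed together. Cdkn1a, which encodes p21, was at 94.1 and 93.1 TPM, Cdkn1c, which encodes p57, at 32.3 and 20.7 TPM and Cdkn1b, which encodes p27, at 18.8 and 19.9 TPM. The whole-series table turned the order of Cdkn1c, at 11.3 and 7.09, and Cdkn1b, at 14 and 16.9. Cdkn2a was listed at 0 and Cdkn2b was at 0 and 0.133 TPM. Cdk6 and Cdk4, the G1 kinases, were at 226 and 252 TPM and at 239 and 220 TPM. All 25 listed replication genes were expressed with a median of 70.2 TPM, and all 25 mitosis genes with a median of 48.6 TPM, both above the 21.2 TPM of expressed genes at large. Mcm3, of the replicative helicase, was at 298 and 245 TPM (88.5 and 91.6 in the whole-series table), Top2a, a topoisomerase of dividing cells, at 178 and 200 TPM, and Mki67, the proliferation antigen, at 139 and 133 TPM. Replication-dependent histones were expressed for 60 of 67 genes. The share of cells in cycle was not measured.

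All 28 immediate early genes were expressed, with a median of 113 TPM, the highest of the lists apart from the 3 to 4 gene marker sets. Zfp36, which promotes decay of cytokine mRNA, was at 1080 and 983 TPM, and Dusp1, a phosphatase of MAP kinases, at 824 and 844 TPM. Egr1, Jun and Fos were at 504.7 and 514.7 TPM, 452 and 414 TPM, and 427 and 422 TPM. The heat shock gene Hspa1a was at 235 and 218 TPM, with a near-identical copy in Hspa1b. At the low end Egr3 was at 4.67 and 1.26 TPM and Fosl1 at 2.26 and 2.65 TPM.

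The effector genes of other lineages were read beside the stem cell lists. Megakaryocyte and platelet genes were expressed for 17 of 20 (85%, against 55.2% of all protein-coding genes). Their median was 19.8 TPM and their summed level 1867 and 2003 TPM. Pf4 (chr5:90772435-90773383) was at 816 and 958 TPM, Gp9 at 122 and 105 TPM and Vwf, the adhesive ligand of platelets, at 53.5 and 61.7 TPM. Ppbp, a chemokine of platelet granules, was lower at 4.14 and 7.34 TPM. The 3 members that were not expressed were Tubb1, the platelet tubulin, at 0 and 0.175 TPM, Gp6, the collagen receptor, at 0.157 and 0.206 TPM and Clec1b, a receptor for podoplanin, at 0.981 and 1.21 TPM. On the erythroid list 11 of 17 measured genes were expressed (64.7%). Yet 1 gene made up most of the summed 544 and 540 TPM, which was the carbonic anhydrase Car2 at 450 and 450 TPM. Hba-a1, of alpha-globin, was at 0 and 0.0948 TPM, and Hba-a2 at 0.338 and 0.0948 TPM. The beta-globin genes Hbb-bt, at 15.2 and 13.3 TPM, and Hbb-bs, at 15.1 and 0 TPM, are near-identical, so reads may have been assigned to either.

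Granulocyte genes were expressed for 3 of 19. Prtn3 (chr10:79874476-79883174), the serine protease proteinase-3, was at 118 and 141 TPM, although related granule genes were not expressed. Elane, neutrophil elastase, Ctsg, cathepsin G, and the calprotectin genes S100a8 and S100a9 were listed at 0 in both libraries, and Mpo, myeloperoxidase, was at 0.503 and 0.909 TPM. On the list of monocyte, macrophage and dendritic cell genes 11 of 24 were expressed, and the members parted in the same way. MHC class II was high, with H2-Aa (chr17:34282744-34287823) at 1402 and 1507 TPM, H2-Ab1 at 567 and 693 TPM and the invariant chain Cd74 at 674 and 768 TPM, and the beta chain H2-Eb1 lower at 42.9 and 21 TPM. Lysozyme, Lyz2, was at 212 and 256 TPM, and its near-identical copy Lyz1 at 0.116 and 0.153 TPM. Other members were low or under 1 TPM. Cd68, of macrophage lysosomes, was at 20.2 and 21.7 TPM, Cd14, a co-receptor for lipopolysaccharide, at 6.84 and 2.6 TPM and Clec9a, of dendritic cells, at 2.43 and 3.89 TPM. Adgre1, which encodes F4/80, was at 0 and 0.0534 TPM, C1qa was listed at 0, Itgax was at 0 and 0.348 TPM and Siglech, of plasmacytoid dendritic cells, at 0.460 and 0.578 TPM. Markers of B cells were low as well, with Cd79a at 0.143 and 0.506 TPM.

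Among T and NK cell genes 5 of 20 were expressed. Nkg7, a granule protein of killer cells, was at 152 and 137 TPM, and Lck, a kinase of the T cell receptor, at 11.4 and 11.4 TPM. Of the CD3 chains Cd3d was at 7.72 and 5.05 TPM and Cd3e at 0.254 and 0.399 TPM, and the co-stimulator Cd28 was at 4.78 and 2.98 TPM. Ncr1, Klrd1 and Gzma, of killer cells, and Cd2 were listed at 0. B cell genes were expressed for 8 of 20, 1 of them at 10 TPM or more, which was Cd79b at 9.80 and 14.4 TPM. Igkc, the kappa light chain, was at 9.19 and 7.69 TPM and Ighm at 2.24 and 3.18 TPM. Rag1, of antigen receptor recombination, and Dntt, a polymerase that acts in it, were listed at 0. On the mast cell, basophil and eosinophil list 2 of 15 were expressed, Gata2 and the carboxypeptidase Cpa3, the latter at 4.50 and 2.99 TPM. Endothelial genes were expressed for 10 of 18 (55.6%), near the 55.2% of all protein-coding genes. Of these, 9 had a mean of 10 TPM or more, among them Egfl7 at 85.8 and 93.5 TPM and Pecam1 at 27.4 and 34.7 TPM. Cdh5, Kdr and Plvap, which define endothelium, were under 1 TPM in both libraries, with Kdr at 0.786 and 0.981 TPM and Plvap at 0.134 and 0.0878 TPM. Stromal genes were expressed for 7 of 21, with Cxcl12 at 0 and 0.248 TPM, Adipoq and Col3a1 listed at 0 and Spp1, osteopontin, at 9.56 and 11.9 TPM, and the highest of them was Runx2. Of 26 genes from tissues far from blood 1 was expressed, Mbp, at 25 and 31.9 TPM, a gene of myelin.

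**Figure D4:**
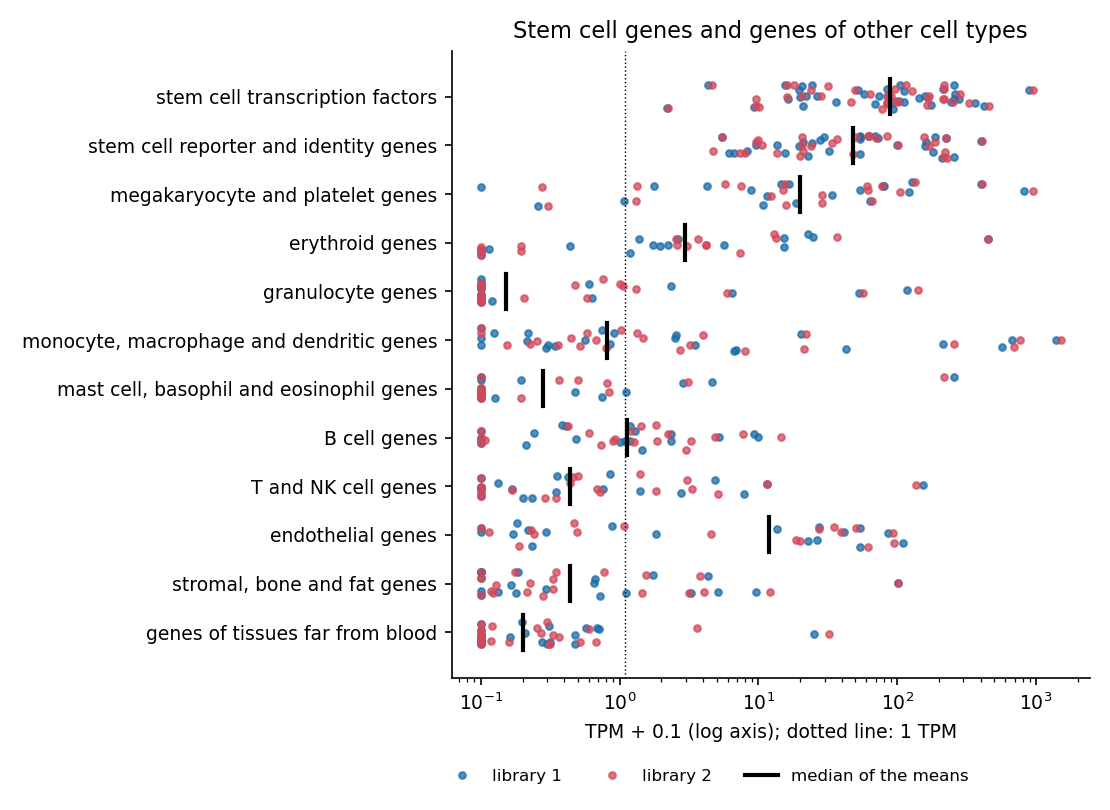
TPM plus an offset of 0.1 (horizontal, log axis) of the members of 12 lists, with a point per gene and library and a bar at the median of the mean levels. The stem cell lists lie above 1 TPM throughout with medians of 88.4 and 48.1 TPM, megakaryocyte and platelet genes and endothelial genes come next, and the medians of the others run up to 1.02 TPM for B cell genes and 2.87 TPM for erythroid genes.

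Transcripts for the proteins that the study deletes in its other genotypes were under 10 TPM in wild type. Scrib, the polarity scaffold, was at 8.19 and 9.29 TPM, Yap1, the Hippo effector, at 2.00 and 2.15 TPM and Wwtr1, which encodes its relative TAZ, at 0.730 and 1.19 TPM. Scrib exceeded Yap1, and Yap1 exceeded Wwtr1, in both libraries. All 3 lay below the 21.2 TPM median of expressed genes. Scrib lay above the 3.22 TPM median of all protein-coding genes, and Wwtr1 did not count as expressed. Of the TEAD factors, through which YAP1 and TAZ act on DNA, Tead2 was at 39.2 and 34.3 TPM, Tead3 at 1.53 and 1.27 TPM, Tead1 at 0.223 and 0.167 TPM and Tead4 was listed at 0.

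Large families of genes for the senses and for barrier tissues served as a view of the low end. Of 1132 olfactory receptors 109 (9.63%) were expressed and 489 were listed at 0, and 5 had a mean of 10 TPM or more. Olfr1033, which has a near-identical copy, was far above the others at 182 and 241 TPM, followed by Olfr648 at 11.6 and 12.3 TPM. Of the 109 expressed, 2 overlap another protein-coding gene. Vomeronasal receptors were expressed for 3 of 327 and bitter taste receptors for none of 35, with 34 of these listed at 0. Keratins were expressed for 5 of 53, where Krt18, of simple epithelia and on the stem cell list, was at 62.0 and 62.1 TPM while Krt8, its usual filament partner, was at 3.09 and 2.15 TPM. Of 100 cytochrome P450 genes 19 were expressed.

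Base composition of promoters went with level. The ratio of observed to expected CpG in the 250 bases before the start had a median of 0.179 for genes listed at 0, 0.343 for genes under 1 TPM, 0.611 at 1 to 10 TPM, 0.760 at 10 to 100 TPM, 0.794 at 100 to 1000 TPM and 0.829 at 1000 TPM or more. The median thus rose across all 6 classes, though its main step was between silent and expressed genes. The letters TATAAA on either strand were found in 23.7% of promoters of genes listed at 0, in 5.69% at 10 to 100 TPM and again in 12.2% at 1000 TPM or more, against 11.9% of all 16470. The motif bound by NRF1, searched on both strands as GCGCA, any base and GCGC, was found in 0.709% for genes listed at 0. It was found in 11% at 100 to 1000 TPM but in 4.88% (4 of 82 promoters) at 1000 TPM or more, against 5.49% of all. Gene groups broke the trend of CpG ratio with level. Promoters of megakaryocyte and platelet genes had a median CpG ratio of 0.144, close to the 0.165 of granulocyte genes, although most platelet genes were expressed and most granulocyte genes were not. Promoters of stem cell transcription factors had a median of 0.784 and none of the 26 matched held TATAAA. The printed windows are picked examples. Hlf had a ratio of 0.934, at 257 and 218 TPM, and Gata2 of 0.785, at 256 and 217 TPM. Pf4 had a ratio of 0.099, at 816 and 958 TPM, and Gp9 of 0.098, at 122 and 105 TPM. A ratio of 0.6 or more was found for 69.2% of the stem cell transcription factor promoters and 6.67% of the platelet ones. Both lists thus had exceptions, such as Runx1 at 0.165 and Lyl1 at 0.226, and Clec1b of the platelet list at 0.775. Olfactory receptors had a median of 0.0986, and 39.4% of their promoters held TATAAA.

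**Figure D5:**
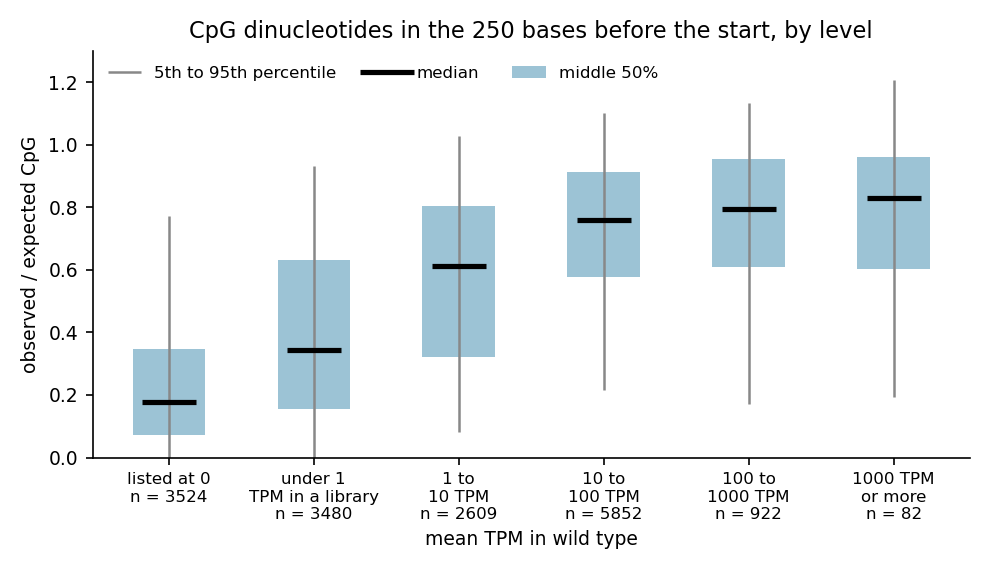
Ratio of observed to expected CpG dinucleotides (vertical) in the 250 bases before the start, by class of mean TPM (horizontal), with the median, the middle 50% and the 5th to 95th percentile of RefSeq promoters. The median rises from 0.179 for genes listed at 0 to 0.829 at 1000 TPM or more, and the classes overlap widely.

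The largest differences between the wild-type libraries, among named genes with a mean of 10 TPM or more, mark the limit of what a level from 2 libraries can say. In the direction of library 1 the leading gene was Klhl35, a Kelch family protein, at 19.0 and 1.43 TPM, followed by Zfp969, a zinc finger gene with near-identical copies, at 36.8 and 4.08 TPM. Tdp2, a DNA repair enzyme, was the most abundant of the first 10 at 103 and 24.8 TPM. In the direction of library 2 the leading gene was Cdc42ep4, an effector of CDC42, at 8.84 and 58.8 TPM, followed by Tdrd7, a Tudor domain protein, at 5.23 and 35.9 TPM. Cycs, cytochrome c, was at 13.0 and 53.8 TPM, the chemokine Ccl3 at 6.46 and 27.1 TPM and Ly96, the co-receptor of TLR4, at 6.74 and 31.6 TPM. None of the 20 genes was on the stem cell lists. Those lists hold only 30 and 37 genes, against 7291 expressed genes at 10 to 100 TPM, so the lack of overlap says little about their spread. Hoxb5, on both lists, was at 20.8 and 9.50 TPM.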

How the data were processed

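Bulk RNA sequencing of sorted bone marrow haematopoietic stem cells was analysed for the 2 wild-type libraries. The 6 libraries of other genotypes were not used. The level tables were deposited by the authors in TPM, per the file headers, and each sums to 1000000. TPM keeps no read depth, so the depth of each library is unknown and no counting interval was given. TopHat and the mm10 build are named per the submitters' processing notes. The quantifier is not given in the sources used here, and neither is its annotation. The authors also deposited linear values for the whole series in a single table; their unit is not named, and it holds 28987 identifiers. Its wild-type columns sum to 888261 and 847796, and it served only as an alternative.

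Symbols were matched to GENCODE M21 on GRCm38, the same assembly as mm10: 32441 of 33641 matched (96.4%), 282 of them through a synonym, and 21732 were protein-coding. A gene was called expressed at 1 TPM or more in both libraries. Means and SDs are over 2 libraries, and no test was run, since 1 group was described. A near-identical copy was a transcript of another gene that matched the longest coding sequence at 95% identity over 80% of its length, found with BLAST 2.17.0. It applied to 981 expressed genes (8.17%), among them 18 of the top 25. RefSeq promoters (GRCm38.p6) were matched by symbol for 16470 genes (75.8%), and motifs were searched on both strands in the 250 bases before the start. The base after this window starts a GENCODE transcript for 49.9% of them.

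The members and the 44 lists and 31 families were chosen with earlier results of these data known. Named genes were the 25 most abundant, the members of lists and families, highest first together with those absent, and the 10 largest differences between libraries in each direction at a mean of 10 TPM or more, on the log2(TPM + 1) scale. The part of the rule on identical proteins could not be applied, because no protein table was used. Alternatives were other thresholds, other denominators, the table of the whole series and each library alone. Scripts were tested on simulated data and used Python 3.11.15, pandas 2.3.3, numpy 2.4.6 and matplotlib 3.10.9. Some genes are not reported here.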

Additional observations from a re-analysis of the deposited data

How the results depend on the processing

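The number of expressed protein-coding genes, 12004, ran from 9713 at a threshold of 5 TPM to 13041 where either library sufficed, and was 11294 in the table of the whole series. With 1 library left out it ran from 12434 to 12611, the share of the top 100 genes from 40.53% to 41.63% and the share of ribosomal protein genes from 23.87% to 25.4%. Without mitochondrially encoded and ribosomal protein genes the top 100 held 29.86% in place of 41.08%. The share of ribosomal protein genes, 24.63%, was 23.03% over all gene models and 22.05% in the table of the whole series. The median difference between libraries on the log2 scale was 0.2542 over expressed genes and 0.1529 with no filter on low values, where genes listed at 0 enter with no difference. The count of expressed members stayed within 1.5 times for 40 of 44 lists at 0.5 TPM, 41 at 2 TPM and 33 at 5 TPM, 42 without library 1 and 43 without library 2. The counts that moved with a library left out were the antigens that the gate excludes, from 3 to 6 without library 1, genes of tissues far from blood, from 1 to 2 without library 1, and mast cell, basophil and eosinophil genes, from 2 to 4 without library 2. The antigens that the gate excludes were among the lists that moved, with 7 of 12 expressed at 0.5 TPM and 0 at 5 TPM. Of 866 list genes present in both kinds of table, expression was called in each for 606 and in neither for 237, with a median fold of 1.22 between tables. Of 626 expressed list genes, 84 were over 1.5-fold lower in the table of the whole series and 6 over 1.5-fold higher; besides those given in the report, the named genes among them were Gfi1b, Gata3, Cd4, Igkc and Pax6, higher, and Myb, Lrp6, Ifi47, Pfkfb3, Hoxb5, Pecam1, Tyk2, Igf1r, Zeb2, Nr4a2, Fli1, Flt3, Mat2a, P2ry14, Il4ra, Ifih1 and Tcf12, lower. The cause was not tested. In the table of the whole series 10 of 7840 genes at 10 TPM or more were over 8-fold apart between the wild-type libraries, against 0 in the TPM tables. No paired analysis was possible because no groups were compared and the results come from no test.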
